A study of Mus musculus with 8 samples.

Results

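Mast cells of mouse inguinal white fat were read out cell by cell in the stromal vascular fraction (SVF), the non-adipocyte cells freed by collagenase digestion of the depot. Droplet-based single-cell RNA sequencing with unique molecular identifiers (UMIs, tags that count each captured transcript once) was available for 8 libraries from C57BL/6 mice (C57BL/6J in the study's text), 4 from mice fed ad libitum (Ad-Lib replicates 1, 3, 5 and 7) and 4 from mice fed in separate windows of the night (TAN replicates 2, 4, 6 and 8). The labels give an age of 8 weeks for every library, whereas the study's text describes older males after a long period of TAN feeding, so the age stays uncertain. How many mice a library held is not given in the labels, while the study's methods name 4 mice per group for the single-cell comparison. The p-values here measure the spread between libraries.

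Of 44427 deposited barcodes, 36370 had 700 to 30000 UMIs, 200 to 8000 genes and at most 10% mitochondrial UMIs and were kept. Mast cells were chosen by their counts: at least 5 UMIs summed over Cpa3, Mcpt4, Cma1 and Tpsb2, at least 1 UMI of Kit or Ms4a2, and no UMI of Pdgfra, Pecam1, Cd3e or Cd79a, which mark progenitors, endothelial cells, T cells and B cells. This gate held 74 cells, 0.203% of the cells kept, with 53 from Ad-Lib and 21 from TAN libraries. By library the number of mast cells was 18, 17, 9 and 9 in Ad-Lib 1, 3, 5 and 7 and 8, 8, 2 and 3 in TAN 2, 4, 6 and 8. Only 2 libraries reached 10 mast cells, so levels are given pooled by group, with the library values beside them where they matter. Levels are CPM (a gene's UMIs over all UMIs of the same cells, scaled to a total of 1000000), and intervals on pooled levels are exact 95% Poisson intervals that cover counting error only.

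Mast cells are long-lived tissue granulocytes that mature from bone marrow progenitors under stem cell factor, the ligand of the receptor tyrosine kinase KIT. Their granules hold proteases, histamine, serotonin and heparin proteoglycans, and the high-affinity IgE receptor, built from the subunits encoded by Fcer1a, Ms4a2 and Fcer1g, triggers their release. Connective tissue mast cells, the type found in skin and around fat and vessels, carry the chymases Mcpt4 and Cma1, carboxypeptidase A3 and tryptases, while mucosal mast cells carry Mcpt1 and Mcpt2.

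GATA2 is a transcription factor that mast cells depend on, and its family binds the core letters GATA. The 250 bases before the transcription start were therefore read for the genes that defined the gate and for the 15 other genes with the greatest excess over other cells. RefSeq gave windows (GRCm38.p6) for 17 of these 21 genes. The windows of 4 gate genes and of Fcer1a are shown 5′ to 3′ on the gene's strand, with GATAA, or TTATC as its reverse complement, in capitals.
Cpa3 (chr3:20242182-20242431, minus strand): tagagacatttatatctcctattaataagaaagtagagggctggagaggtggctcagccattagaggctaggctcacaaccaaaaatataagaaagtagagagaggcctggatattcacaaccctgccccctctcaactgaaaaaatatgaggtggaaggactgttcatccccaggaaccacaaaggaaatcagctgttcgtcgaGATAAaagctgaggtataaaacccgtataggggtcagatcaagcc
Mcpt4 (chr14:56062311-56062560, minus strand): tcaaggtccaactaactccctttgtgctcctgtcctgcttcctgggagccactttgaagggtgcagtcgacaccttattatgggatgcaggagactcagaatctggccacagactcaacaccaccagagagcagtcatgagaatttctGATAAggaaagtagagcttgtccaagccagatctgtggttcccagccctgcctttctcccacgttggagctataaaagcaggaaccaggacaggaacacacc
Cma1 (chr14:55944676-55944925, minus strand): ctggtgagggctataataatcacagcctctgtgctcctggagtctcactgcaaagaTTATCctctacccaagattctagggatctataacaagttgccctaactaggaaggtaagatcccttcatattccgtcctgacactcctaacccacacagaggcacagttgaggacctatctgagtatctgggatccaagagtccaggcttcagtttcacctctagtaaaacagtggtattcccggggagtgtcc
Ms4a2 (chr19:11623720-11623969, minus strand): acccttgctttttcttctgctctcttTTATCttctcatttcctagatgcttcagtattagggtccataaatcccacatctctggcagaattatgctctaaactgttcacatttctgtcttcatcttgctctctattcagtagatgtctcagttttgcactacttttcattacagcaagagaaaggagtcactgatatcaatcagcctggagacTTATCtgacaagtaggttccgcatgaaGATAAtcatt
Fcer1a (chr1:173227230-173227479, minus strand): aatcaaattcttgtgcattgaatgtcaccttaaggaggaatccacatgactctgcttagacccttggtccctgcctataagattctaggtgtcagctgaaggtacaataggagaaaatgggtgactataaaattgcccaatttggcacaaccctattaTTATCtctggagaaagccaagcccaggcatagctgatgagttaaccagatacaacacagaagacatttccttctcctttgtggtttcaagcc
The motif begins 45 bases before the start in Cpa3, 102 in Mcpt4, 194 in Cma1 and 92 in Fcer1a. Ms4a2 holds 3 matches, at 224, 37 and 10 bases before its start, a count of at least 2 that 4.28% of all 32851 RefSeq windows reach. Of the 17 genes with a window, 9 held the motif in at least 1 window, against 25.5% of all 27025 genes in the table, and Kit held none. A match is a run of letters in this window and no evidence of binding.

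The gate picked cells with a large excess of the selecting transcripts. The summed protease count ran from 5 to 999 UMIs with a median of 259, which was a median of 9.85% of a cell's UMIs. All 4 proteases were detected in 72 of the 74 cells, Kit in 72, Ms4a2 in 56 and both in 54. Deeper cells held higher sums: the log10 protease sum and the log10 UMI total correlated with a Pearson r of 0.63 (Spearman rho 0.84) across the 74 cells, both measured on the same library. Mast cells held 747 to 7503 UMIs (median 2748.5) and 481 to 2541 genes (median 1249), so none approached the upper limits, and no doublet caller was run.

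Few cells lay near the threshold. Just inside it were 2 members with sums of 5 and 8, and the next lowest sum was 25. Just outside it were 4 cells with a sum of 3 or 4 and a Kit or Ms4a2 UMI, against 35933 cells with a sum of 0. Among 98 cells with a sum of at least 5, 12 lacked Kit and Ms4a2, 5 of them in TAN 6. A further 12 carried a lineage UMI, and 7 of these were left out for a single Pecam1 UMI with no other lineage UMI. All 7 came from TAN libraries (4 in TAN 2, 2 in TAN 4 and 1 in TAN 8). They had protease sums of 117 to 627, at least 1 UMI each of Hdc, Mrgprb1, Fcer1a and Kit, and no UMI of the endothelial genes Cdh5, Cldn5, Flt1 or Egfl7.

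**Figure D1:**
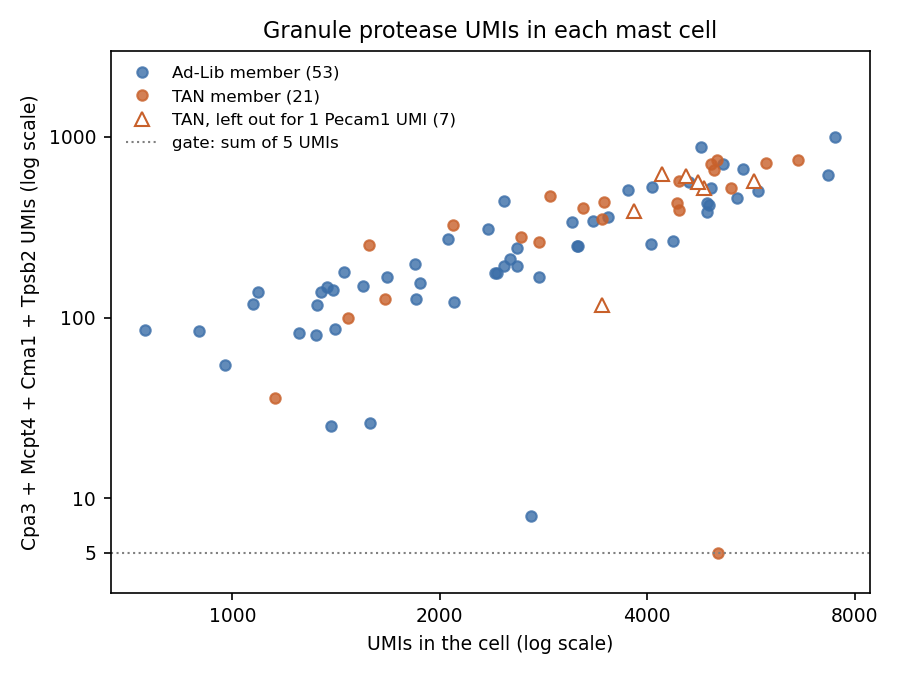
Summed Cpa3, Mcpt4, Cma1 and Tpsb2 UMIs of each cell (y, log scale) against its total UMIs (x, log scale). Filled points are the 53 Ad-Lib and 21 TAN members, open triangles the 7 TAN cells left out for 1 Pecam1 UMI, which lie among the members at sums of 117 to 627, and the dotted line is the threshold of 5 UMIs.

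The library totals ran from 25320800 to 37140950 UMIs, and the median UMIs of the cells kept ran from 5060 to 6560.5 in Ad-Lib and from 3925.5 to 5189 in TAN libraries. In the cells kept, 174 barcodes occurred in more than 1 library, none of them a member. RNA outside its cell of origin was low for the proteases: Mcpt4 had a UMI in 97.3% of mast cells and in 0.110% of 2725 B cell-like cells (median 3563 UMIs) and 0.656% of 3813 macrophage-like cells (median 6295 UMIs), both groups being cells chosen by marker counts.

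Transcripts that the gate did not use named the same cell type. Hdc, the enzyme that makes histamine, was detected in 71 of 74 cells, Gata2 in 64, Fcer1a in 57 and Il1rl1, the IL-33 receptor, in 62. Of other cells kept, 0.920% had an Hdc UMI and 0.0441% an Fcer1a UMI. B cell, T cell, macrophage, granulocyte, progenitor, endothelial and adipocyte markers were lower, pooled by group, than in the other cells kept, while the 8 basophil markers took 0.134% of UMIs in Ad-Lib and 0.127% in TAN against 0.0186%. The 6 markers of group 2 innate lymphoid cells took 0.0903% and 0.129% against 0.0170%, with 232 UMIs of Il1rl1, 4 of Gata3, 2 of Rora and 1 each of Il7r and Icos. Beside the genes the gate set to 0, the other 6 T cell markers and the 6 neutrophil and eosinophil markers had no UMI in any mast cell. Of the 8 macrophage markers 5 were detected, with 14 UMIs in all and Adgre1, Cd68 and Csf1r at 0, and B cell markers took 0.00516% of UMIs in Ad-Lib and 0.00258% in TAN with Cd79b and Ms4a1 at 0. Of the 8 fibroblast and progenitor markers 7 were detected, at 0.0271% and 0.0219% against 1.90% in other cells, led by Gsn with 38 UMIs in 23 cells. Of the 6 endothelial markers 5 were detected, at 0.0342% and 0.108% against 1.10%, mostly Fabp4 with 125 UMIs in 17 cells, the TAN value being 0.0179% without TAN 8, and the adipocyte markers Adipoq and Plin1 were at 0. In all, 7 members held a UMI of Adgre1, C1qa, Dcn, Cdh5, Ms4a1 or Trac. With 232786 UMIs in all mast cells, a count of 0 limits only what could be seen at this depth.

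The 12 granule proteases listed took 9.80% of mast cell UMIs in Ad-Lib and 11.1% in TAN, mostly from the 4 genes of the gate. Mcpt4, the chymase mMCP-4 (GRCm38 chr14:56059629-56062313, minus strand), stood at 41948 CPM in Ad-Lib (interval 40935 to 42980) and 47164 in TAN (45648 to 48716). Cma1, the chymase mMCP-5, lies on the same chromosome (chr14:55941451-55944675, minus strand) and stood at 24820 and 27876 CPM. Cpa3, which trims peptides from their carboxyl end (chr3:20215620-20242181, minus strand), stood at 15427 and 16532 CPM, and the tryptase Tpsb2 (chr17:25366305-25369098, plus strand) at 14943 and 18322 CPM. Counting intervals of both chymases and of Tpsb2 did not overlap between the pooled groups, but they leave out the spread between libraries. Per library the 4 proteases took 9.95%, 9.17%, 9.91% and 9.98% of mast cell UMIs in Ad-Lib 1, 3, 5 and 7 and 10.0%, 12.1%, 12.0% and 10.4% in TAN 2, 4, 6 and 8. All TAN libraries were above all Ad-Lib libraries in this share, by less than 0.1 points at the closest pair, and the share is one the gate selected on.

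The rest of the protease list separated the connective tissue from the mucosal type. Tpsab1, the other tryptase of this locus, had 97 UMIs in 33 cells, and Tpsg1, a membrane-anchored tryptase, 79 UMIs in 36 cells. The mucosal protease Mcpt2 had 1 UMI, and Mcpt1 and Mcpt9 had none. Ctsg (cathepsin G) was seen in 4 cells and Gzmb (granzyme B) in 3, with 22 of the 36 Gzmb UMIs in a single Ad-Lib cell. Tpsb2 and Tpsab1, the chymases, and the Mrgpr genes each have close relatives in sequence, so the division of reads within these families is uncertain.

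Genes of amine storage and the granule matrix took 1.23% of mast cell UMIs in Ad-Lib and 1.28% in TAN, against 0.167% in other cells. Srgn, the core protein that carries heparin, stood at 3636 CPM in Ad-Lib and 4210 in TAN, 12.3-fold the 311 CPM of other cells. Hdc stood at 2759 and 2163 CPM, 767-fold over other cells. Slc18a2, the vesicle transporter that loads histamine and serotonin, was detected in 61 cells and Tph1, the rate-limiting enzyme of serotonin synthesis outside the brain, in 41. The serotonin transporter Slc6a4 was detected in 55 cells, and Maob, which degrades amines, in 24. All 18 genes of the list had a UMI, 12 of them in at least 30% of mast cells and 10 at a higher level than other cells in all 8 libraries. Of 32285 genes in all, 1085 were detected in at least 30% of mast cells. The share of all genes above other cells in all 8 libraries is not given. Such counts, here and for the lists below, are therefore a description. Rab27b, a small GTPase of granule docking, was 593-fold over other cells while its relative Rab27a had 5 UMIs. Hs6st2, a sulfotransferase that modifies heparan sulfate chains, was found in 50 cells and Ndst2, which sulfates heparin, in 45.

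Of the 9 IgE and growth factor receptor genes 6 exceeded other cells in all 8 libraries, Kit and Ms4a2 of the gate among them, and of 24 other receptor genes 7 did so and 7 had no UMI. Fcer1a stood at 703 CPM in Ad-Lib and 1300 in TAN against 0.335 in other cells, Ms4a2 at 690 and 747 CPM, and Fcer1g, which many myeloid cells share, at 3488 and 3296 CPM. Kit stood at 2069 and 2150 CPM. Mrgprb1 was detected in 72 cells with 477 UMIs, Mrgprb2 in 55 with 111 and Mrgprx2 in 35 with 66. Mrgprb2 encodes the receptor through which cationic drugs and peptides degranulate mast cells without IgE. Other receptors at high fold over other cells were Adora3 (adenosine, 553-fold, 38 cells), P2rx1 (ATP, 75.1-fold, 18 cells) and the inhibitory receptor Lilrb4a (16.5-fold, 53 cells). C3ar1, C5ar1, Cysltr1 and Cysltr2 had no UMI.

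IL-33 responsiveness in fat is usually ascribed to group 2 innate lymphoid cells and regulatory T cells, and Il1rl1 was followed here as a mast cell transcript. It was detected in 83.8% of mast cells and in 2.37% of other cells. Mast cells made up 6.73% of the 921 cells with an Il1rl1 UMI and held 232 of the 1650 Il1rl1 UMIs, which is 14.1% of them, while being 0.203% of the cells kept. The innate lymphoid genes Gata3, Il7r and Icos had 4, 1 and 1 UMIs in mast cells.

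**Figure D2:**
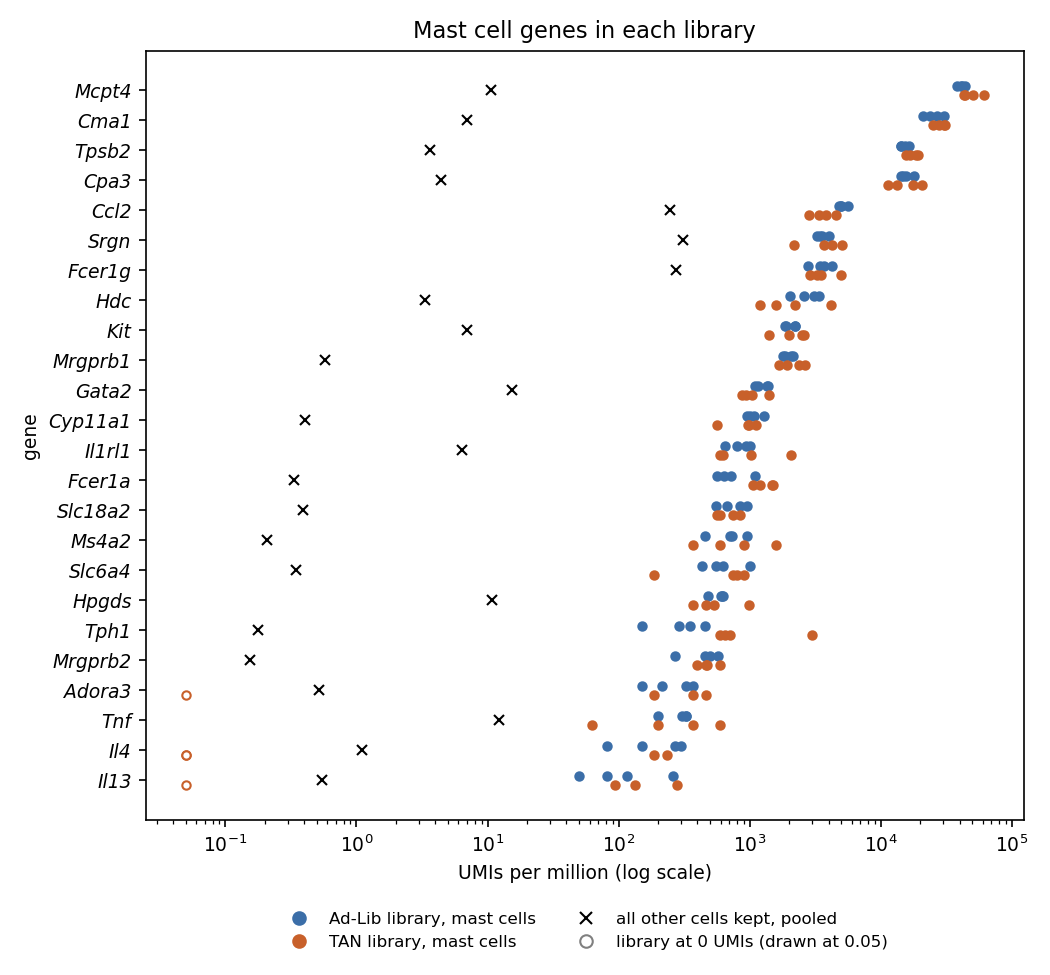
Levels of 24 genes (y) in CPM (x, log scale), 1 point per library for the mast cells of that library, and a cross for all other cells kept. For Mcpt4 the library points lie between 38492 and 61017 against 10.7 in other cells, and open circles mark TAN libraries without a UMI of that gene.

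Among all genes detected in at least 30% of mast cells, and leaving out the gate genes, the 15 with the greatest fold over other cells were Smpx, Krt4, Tpsab1, Mrgprb1, Mrgprx2, Mrgprb2, Tpsg1, Tph1, Fcer1a, Cyp11a1, Slc18a2, Atp8b5, Slc6a4, Hs6st2 and Rab44. Since the gate chose these cells, the folds describe them and were not tested, and the other cells include cells with high protease sums that failed another condition of the gate. Smpx, a small protein known from striated muscle, had 26 UMIs in 23 mast cells and 3 UMIs in the 36296 other cells. Krt4, a keratin of stratified epithelia, had 46 UMIs in 31 mast cells and 7 in the other cells. Cyp11a1, the mitochondrial enzyme that starts steroid hormone synthesis from cholesterol, was detected in 60 cells at 1083 CPM in Ad-Lib and 824 in TAN, against 0.408 in other cells. By library Cyp11a1 stood at 958, 1087, 1298 and 1004 CPM in Ad-Lib 1, 3, 5 and 7 and 562, 971, 997 and 1118 CPM in TAN 2, 4, 6 and 8, with overlapping groups. Atp8b5, a phospholipid flippase, was found in 58 cells, and Rab44, a large GTPase of granule release, in 30.

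Transcription factors and signalling genes differed in their excess over other cells. Gata2 stood at 1283 CPM in Ad-Lib and 979 in TAN, 77.0-fold over other cells, whereas its relative Gata1 had 3 UMIs. Tal1, a partner of GATA factors, was detected in 36 cells (50.9-fold), Meis2 in 49 (16.1-fold) and Mitf, which controls many mast cell genes, in 19 (4.93-fold). Of the 17 genes of IgE signalling all had a UMI, and 6 exceeded other cells in all 8 libraries. The adaptor Lat2 was found in 59 cells at 38.9-fold, Rgs13, a brake on G protein and IgE signalling, in 33 cells at 334-fold, and the phosphatase Inpp5d in 49 cells at 8.81-fold, while the kinases Syk and Lyn were at 2.80-fold and 2.17-fold.

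Eicosanoid enzymes were represented mainly by Hpgds, the haematopoietic prostaglandin D2 synthase, in 50 cells at 51.1-fold over other cells. Alox5, Alox5ap and Ltc4s, the enzymes and partner protein of leukotriene synthesis, had 12, 16 and 5 UMIs, and Ptgs2 had none.

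Cytokine and chemokine transcripts were led by Ccl2, the monocyte attractant, with 1062 UMIs in 71 cells. Its share of B cell-like cells with a UMI was 3.49%, a measure of free RNA. By library Ccl2 stood at 4789, 5609, 4947 and 4968 CPM in Ad-Lib 1, 3, 5 and 7 and at 2840, 3849, 3390 and 4565 CPM in TAN 2, 4, 6 and 8. All TAN libraries lay below all Ad-Lib libraries, but the change did not pass edgeR's test across genes (log2 change -0.42, standard error 0.20, adjusted p = 0.721), in which 0% of the genes tested were called. The type 2 cytokines Il4 and Il13 were detected in 29 and 18 cells, 9 of which had both, and in 0.468% and 0.129% of other cells. Tnf was detected in 35 cells, and 15 of the 18 cells with Il13 also held Tnf. Deeper cells show more genes of low count, and depth was not accounted for in these joint counts. Il3, Il5, Il6, Il9, Csf2, Areg and Il1b had no UMI.

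Some mediators sat in single cells. Of 87 Ccl3 UMIs 86 came from 1 TAN 2 cell, which also held 222 of the 294 Ccl4 UMIs, 20 Ccl6, 41 Ifitm1 and 20 Osm UMIs. This cell was the member with a protease sum of 5. It had no UMI of Kit, Mrgprb1, Mcpt4, Cma1 or Tpsb2 and passed the gate with 1 Ms4a2 UMI. It had 5 UMIs of Cpa3, 8 of Hdc, 3 of Fcer1a and 2 of Mcpt8, the protease that marks basophils. Whether it was a mast cell or a basophil was not tested. The other low member, from Ad-Lib 1 with a sum of 8, had 5 Kit and 5 Gata2 UMIs and 22 Gzmb UMIs, and 42.5% of its UMIs were Gm42418, a gene with ribosomal sequence. Ccl6, Ifitm1, Osm and Gm42418 were named after their values were seen. Prss34, another protease described in basophils, had 63 UMIs in 11 mast cells and 1 UMI in all other cells. All 11 cells also held Cpa3, Mcpt4 and Cma1 with protease sums of 86 to 504, and none of them held Mcpt8. Ccl7, a chemokine related to Ccl2, was found in 23 cells, with up to 60 UMIs in a TAN 8 cell. All 23 had Ccl2, as did 71 of the 74 members. The same TAN 8 cell carried 71 Fabp4, 43 Car3 and 22 Cfd UMIs, genes of adipocytes, beside a protease sum of 741.

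**Figure D3:**
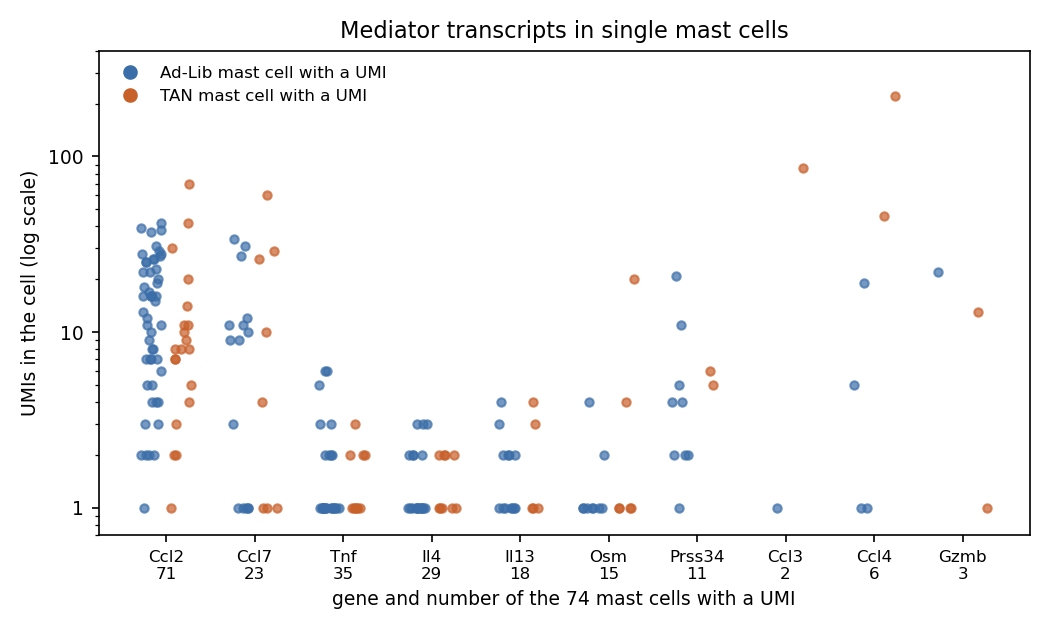
UMIs of 10 mediator genes in single mast cells (y, log scale), each point 1 cell with at least 1 UMI, Ad-Lib left and TAN right within each gene, with the number of such cells under the gene name. Ccl2 is spread over 71 of 74 cells, whereas 222 of the 294 Ccl4 UMIs and 86 of the 87 Ccl3 UMIs are in 1 TAN cell. That cell is the member with a protease sum of 5 and no Kit UMI.

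Immediate-early genes, which rise within minutes of a stimulus, were high. The 17 genes of this list took 5.38% of mast cell UMIs in Ad-Lib and 4.90% in TAN, against 2.09% of the UMIs of other cells. Fos stood at 10179 and 8846 CPM against 2954 in other cells, Jun at 9128 and 8202 CPM against 2316, and Egr1 at 6460 and 4120 CPM. Not all members were high: Atf3 had 6 UMIs and Btg2 11, at 0.0414-fold and 0.0460-fold of the level in other cells, and Klf4 was at 0.253-fold.

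Genes tied to the study's question on insulin and leptin were sparse. Lepr, the leptin receptor, and Irs1 had no UMI, Insr had 6 UMIs in 6 cells and Igf1r 48 UMIs in 32 cells. The 11 genes of the list took 0.0542% of mast cell UMIs in Ad-Lib and 0.0348% in TAN against 0.0809% in other cells. The 14 clock genes together had 44 UMIs in Ad-Lib and 26 in TAN mast cells, too few to describe a phase.

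The share of mast cells among the cells kept was lower in the TAN libraries. It was 0.350%, 0.348%, 0.237% and 0.242% in Ad-Lib 1, 3, 5 and 7 and 0.185%, 0.162%, 0.0354% and 0.0765% in TAN 2, 4, 6 and 8. The exact Clopper-Pearson 95% intervals were wide, from 0.208% to 0.552% for Ad-Lib 1 and from 0.00428% to 0.128% for TAN 6, so the intervals of TAN 2, TAN 4 and TAN 8 overlapped those of every Ad-Lib library, and that of TAN 6 overlapped those of Ad-Lib 5 and 7. The groups of shares did not overlap (0.294% ± 0.0631 in Ad-Lib and 0.115% ± 0.0707 in TAN, SD, n = 4 each). The difference of -0.179 percentage points had p = 0.0286 in a two-sided exact permutation test, the smallest p that 4 against 4 libraries can give. The lower share in TAN was already known from earlier results of these data. This p therefore describes the gate and is no independent support. Cells with a Cd79a, Cd3e or Trac UMI numbered 148 to 1261 in Ad-Lib and 430 to 2530 in TAN libraries. With these cells left out of the denominator the difference was -0.182 points (exact permutation p = 0.0286).

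A permutation p under 0.05 was not reached under every gate or without every library. With a single Pecam1 UMI allowed, TAN rose from 21 to 28 cells while Ad-Lib stayed at 53, and the difference was -0.140 points (exact permutation p = 0.114). With every cell thinned to 2000 UMIs, which left out 3028 Ad-Lib and 4096 TAN cells as too shallow, it was -0.0842 points (exact permutation p = 0.229). The cells left out held 20 of the 53 Ad-Lib and 4 of the 21 TAN members. The members with at least 2000 UMIs numbered 33 and 17, and after thinning 33 Ad-Lib and 20 TAN cells passed the gate. Without Ad-Lib 1 or without Ad-Lib 3 it was -0.161 points (exact permutation p = 0.0571 for each). A gate on counts cannot tell fewer mast cells from less RNA per mast cell. The members' own median UMIs were 2858 ± 1393 in Ad-Lib (n = 4) and higher in TAN by 815 (3 libraries with at least 3 mast cells), a difference within the spread (two-sided exact permutation p = 0.40). It was 1490 without Ad-Lib 5, 1338 without TAN 8, 547 without Ad-Lib 3, 477 without Ad-Lib 7, 426 without TAN 2, 524 with all 8 libraries and 262 without the Kit or Ms4a2 condition.

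**Figure D4:**
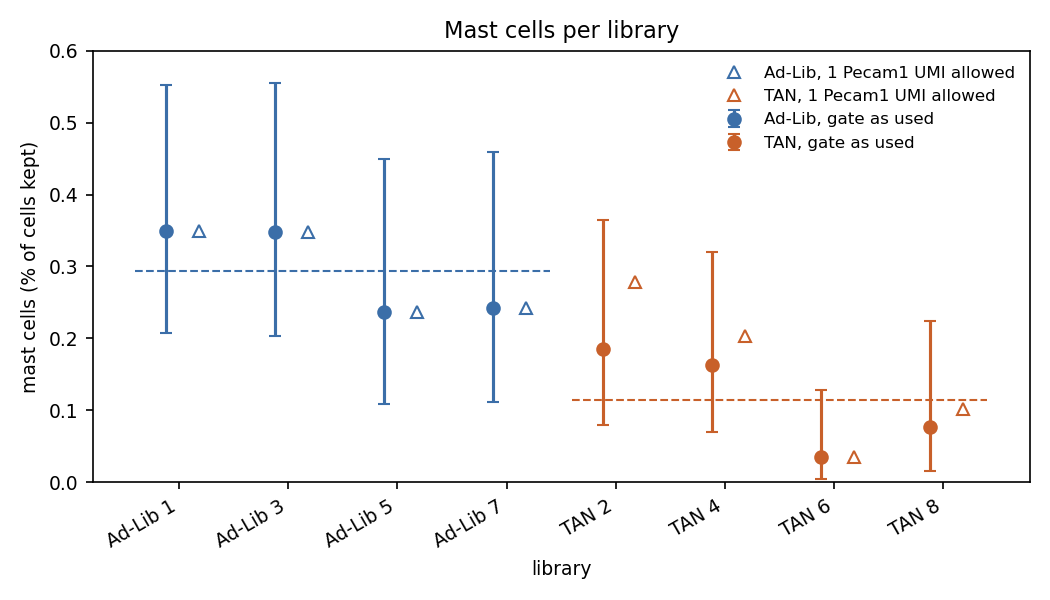
Mast cells as a percentage of the cells kept (y) in each library (x), with exact 95% binomial intervals, and group means as dashed lines. Filled points run from 0.237 to 0.350 in Ad-Lib and from 0.0354 to 0.185 in TAN, and open triangles show the shares with 1 Pecam1 UMI allowed, where the TAN 2, TAN 4 and TAN 8 values are higher.

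Gene levels were compared between TAN and Ad-Lib on counts summed over the mast cells of each library, using the 7 libraries with at least 3 mast cells, which leaves out TAN 6. With edgeR's quasi-likelihood test and Benjamini-Hochberg adjustment, 0 of 436 genes tested (0%) reached an adjusted p under 0.05 with at least a 1.5-fold change. At an unadjusted p under 0.05 there were 29 genes with edgeR and 18 with DESeq2, which also called 0. The median log2 change of all genes tested was 0.02. A gene that misses the threshold here is not shown to be alike in the groups, since 19 TAN cells stand behind one side of the comparison.

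Within the gene lists no member passed. The 6 granule proteases tested had a median log2 change of 0.17, the 9 matrix and amine genes 0.04, the 7 other receptors 0.21, the 4 transcription factors -0.34 and the 15 immediate-early genes -0.13. For the main proteases the log2 change was 0.18 for Mcpt4 (standard error 0.16), 0.16 for Cma1 (0.18), 0.17 for Cpa3 (0.19) and 0.28 for Tpsb2 (0.17). Kit and Ms4a2 changed by 0.02 and -0.02 with standard errors of 0.25 and 0.33. These genes chose the cells, so the values are a description.

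The 10 genes with the smallest p outside the gate, none of which passed, were Ccl4, Tyrobp, Mt1, Actg1, Fcer1a, Tph1, Zbtb38, Egr3, Zfp36l2 and Clec2d. Fcer1a stood at 632, 717, 568 and 1104 CPM in Ad-Lib 1, 3, 5 and 7 and at 1061, 1506 and 1491 CPM in TAN 2, 4 and 8 (log2 change 0.91, standard error 0.28, edgeR adjusted p = 0.413). Ad-Lib 7 lay above TAN 2, so the groups overlapped, and TAN 6, outside the fit, stood at 1196 CPM. Tph1 stood at 287, 457, 351 and 151 CPM in Ad-Lib and 593, 703 and 652 CPM in TAN 2, 4 and 8 (log2 change 1.01, standard error 0.32, edgeR adjusted p = 0.413). Here the groups did not overlap, and TAN 6 with 2 cells stood at 2991 CPM. Tyrobp, the signalling adaptor DAP12, stood at 651, 630, 514 and 652 CPM in Ad-Lib and 1186, 1004 and 1025 CPM in TAN (log2 change 0.86, standard error 0.25, edgeR adjusted p = 0.413). The groups did not overlap for Tyrobp either. Both Tph1 and Tyrobp were picked by p, which favours separated groups. Genes outside the 10, such as Tnfaip3, Rgs2 and Tspo, did not overlap either.

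Values of Egr3, an immediate-early factor, were lower in TAN, at 575, 1043, 1108 and 1004 CPM in Ad-Lib and 406, 435 and 559 CPM in TAN (log2 change -0.99, standard error 0.32, edgeR adjusted p = 0.413). The metallothionein Mt1, which metals and glucocorticoids induce, had a log2 change of -1.39 with overlapping groups (728 to 1522 CPM against 268 to 839 CPM), and -2.02 without the members that held UMIs of other lineages. Zbtb38 and Zfp36l2, a zinc finger repressor and an RNA-binding protein, had log2 changes of -1.48 and -1.19. The lectin gene Clec2d had a log2 change of 1.07, and of 0.65 without the members that held UMIs of other lineages. The cytoplasmic actin gene Actg1 had a log2 change of 1.33 with overlapping groups, and of 0.49 without TAN 2. For Actg1, TAN 2 stood at 2310 CPM against 837 and 652 in the other TAN libraries of the fit. Ccl4 had the greatest change of the 10, 4.56 (standard error 1.04, edgeR adjusted p = 0.277), and its TAN counts came from 2 cells. They were the TAN 2 member with a protease sum of 5 (222 UMIs) and the TAN 8 member with 71 Fabp4 UMIs (46 UMIs). With a protease sum of at least 10 required, Ccl4 was no longer among the genes tested. Its pooled levels were then 164 CPM in Ad-Lib and 634 in TAN. Without TAN 2 the change was 3.42. Its levels were 402, 109, 0 and 0 CPM in Ad-Lib and 6929, 0 and 4286 CPM in TAN 2, 4 and 8.

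Markers of adipocytes rested on TAN 8. They took 0.0387% of mast cell UMIs in Ad-Lib and 0.227% in TAN, against 1.23% in other cells, with 8 of 10 markers detected and Adipoq and Plin1 at 0. Their library shares ran from 0 to 0.151% in Ad-Lib and from 0 to 1.5% in TAN, the highest being TAN 8, which held the cell with 71 Fabp4 UMIs. Without TAN 8 the TAN share was 0.0224%, below that of Ad-Lib. The count of called genes without TAN 8 was also 0 (41 genes at an unadjusted p under 0.05 by edgeR).

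**Figure D5:**
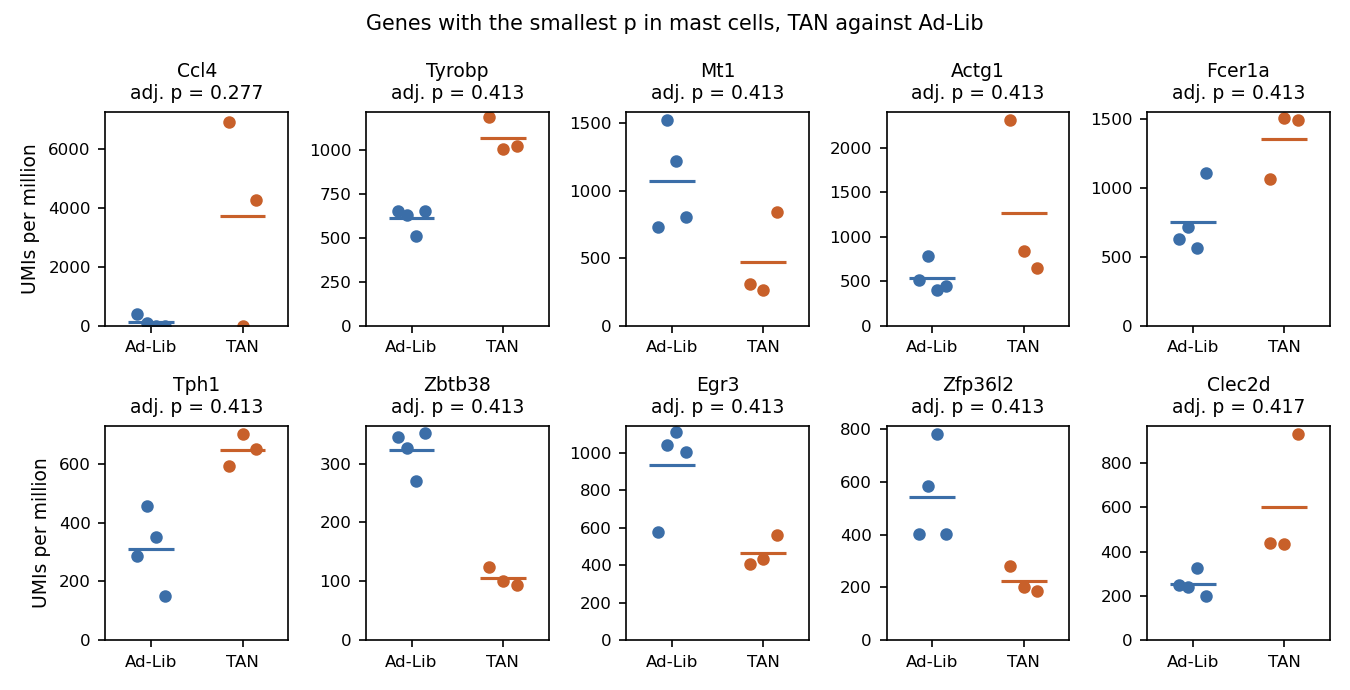
Levels in CPM (y, from 0) of the 10 genes with the smallest p in the 4 Ad-Lib and 3 TAN libraries with at least 3 mast cells, 1 point per library and the group mean as a line. None passed an adjusted p of 0.05, and Ccl4 is at 0 in TAN 4 and at 6929 in TAN 2. Tph1, Tyrobp, Zbtb38, Egr3, Zfp36l2 and Clec2d are without overlap, but the genes were picked by p, which favours separated groups.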

How the data were processed

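Libraries were prepared from the SVF with droplet 3′ chemistry (10x Genomics version 3). Per the labels and the study's methods, the authors used Cell Ranger 3.0.2 on mm10 (GRCm38) and counted exonic reads, while the deposited matrix headers name version 6.0.1. The deposited values are UMI counts per gene and cell, not normalized. All 8 libraries, 25320800 to 37140950 UMIs each, were read, and cells were kept and gated as described above. Members and gene lists were chosen with earlier results of these data known, and the lower mast cell share in TAN was among them.

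CPM is the count over the UMIs of the member cells. Counts were summed per library and tested with edgeR 4.0.16 (quasi-likelihood, TMM, filterByExpr defaults) over all genes in libraries with at least 3 members; DESeq2 1.42.0 was an alternative. Shares and medians were compared with exact permutation tests (scipy 1.17.1). The code was tested on simulated data. Named genes were the gate genes, fixed lists by function, the 10 smallest p and the 15 greatest folds in at least 30% of members. Gene positions follow GENCODE M21 (GRCm38). Depth, gate, filter and left-out libraries were varied.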

Additional observations from a re-analysis of the deposited data

Results flagged for a closer look

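Among 28 groups of 4 libraries checked for a library far from its fellows, 2 held one, and chance gives about 1 in 20 such groups. The 4 gate proteases took 9.17% of mast cell UMIs in Ad-Lib 3, below the other Ad-Lib libraries (9.91% to 9.98%). This share and the levels of the gate genes, also among the measures checked, are values the gate selected on, so they are a description. The median mitochondrial share of mast cells was 3.76% in Ad-Lib 5, above the other Ad-Lib libraries (3.35% to 3.41%).

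Several kinds of cell outside the members also carried mast cell transcripts. Cells that met the protease and Kit or Ms4a2 conditions and were left out for a single Pecam1 UMI numbered 7 in TAN and 0 in Ad-Lib. Barcodes that passed the whole gate but lay outside the limits on UMIs, genes or mitochondrial share numbered 6 in TAN, 5 of them in TAN 6, and 3 in Ad-Lib. Of these 9 barcodes, 5 had under 700 UMIs and 4 had over 10% mitochondrial UMIs. A protease sum of 1 was found in 166 Ad-Lib and 129 TAN cells, a sum of 3 or 4 in 8 and 12, and a sum of at least 5 without Kit or Ms4a2 in 6 of each. None of these differences was tested.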

How the results depend on the processing

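No paired analysis was possible because Ad-Lib and TAN libraries share no replicate number. Over 18 alternatives the share stayed lower in TAN, 12 of them with p = 0.0286 in the exact permutation test. It missed the threshold at -0.157 points with no lineage condition (exact permutation p = 0.0857), at -0.0842 with cells thinned to 2000 UMIs, at -0.0853 with thinned cells and the protease sum alone (exact permutation p = 0.286), and at -0.140 with a single Pecam1 UMI allowed, a setting chosen after seeing the data. Leaving out 1 library each gave -0.203 to -0.153 points; without Ad-Lib 1 it was -0.161 and without Ad-Lib 3 also -0.161. The median depth, gene number and mitochondrial share of mast cells did not pass in any of 30 alternatives, but those with 3 against 3 or 4 against 2 libraries could not, since their smallest p is 0.1 or 0.0667. In 14 of 16 alternatives 0 genes were called, though a minimum of 5 cells per library and leaving out TAN 8 were the same fit. With no filter on low counts 11 of 10222 genes were called (Fabp4, Car3, Thrsp, Ifitm1, Mt1, Cfd, Ccl6, Ccl3, Ccl4, Hist1h2ap and Hist1h2ae), and Ccl3, Ccl4, Ccl6 and Ifitm1 rested mainly on 1 TAN 2 cell, and Fabp4, Car3, Cfd and Thrsp on 1 TAN 8 cell. Leaving out 1 library each gave 0 to 1 genes, the 1 being Ccl4 without TAN 4 (edgeR adjusted p = 8.4e-05), whose TAN counts came from 2 cells. With a minimum of 10 cells no TAN library was left and the model could not be fitted; with a minimum of 5 it held 4 Ad-Lib and 2 TAN libraries, fewer than the 3 per group intended. No share, depth or gene result reversed under these alternatives, but the pooled shares of adipocyte and endothelial markers, higher in TAN, were lower than in Ad-Lib without TAN 8 (0.0224% against 0.0387% and 0.0179% against 0.0342%). With 2 and 3 mast cells in TAN 6 and TAN 8, gene changes there were not detectable at this depth.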
